A study of Mus musculus with 6 samples.

Results

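The genes described here are the 10 smooth muscle contractile genes Acta2, Actg2, Myh11, Mylk, Tagln, Cnn1, Smtn, Lmod1, Synpo2 and Des, taken by their Ensembl identifiers from the count tables of 6 mouse lungs, which hold 35275 gene rows each. Balb/c mice received 250000 4T1 cells, a murine breast cancer line, into a tail vein and gave their lungs 7 days later, after perfusion with 20 mL of PBS. In 3 lungs, called KO here, the injected cells were the PD-L1 knockout of 4T1, and in 3 lungs, called WT, they were unmodified 4T1 cells. KO and WT therefore name the tumour cells, since no edit of the host mice is labelled, and both groups carried tumour cells, so no tumour-free lung is in the comparison. Whether the KO cells are 1 clone is not given in the sources used here, and neither are the age and sex of the mice. The labels number the lungs 1 to 3 in each group without saying that each came from a separate animal, so a p-value here covers the spread between these libraries, which may be partly technical. Any other difference between the injected KO and WT cell populations, or in how many tumour cells the lungs held, cannot be told apart from the missing PD-L1.

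Smooth muscle shortens when myosin pulls on actin filaments. Calcium entering the cell binds calmodulin, which activates myosin light chain kinase, and the phosphorylated myosin then cycles on filaments of smooth muscle actin that are held by dense bodies and by desmin. Transgelin, calponin, smoothelin, leiomodin and synaptopodin-2 bind these actin filaments and set their assembly, bundling or access to myosin. In the lung such cells wrap airways, arteries and veins, and pericytes and alveolar myofibroblasts use part of the same machinery. Many of these genes are switched on by serum response factor with its cofactors myocardin and the myocardin-related factors, which act at a promoter motif called the CArG box.

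Libraries held 15222408 to 16469780 counts in KO lungs and 14711459 to 16932114 counts in WT lungs. The contractile genes took 0.0971% to 0.166% of the counts of a library, and each had between 107 and 12402 counts in every library, so all 10 passed the filter on low counts through both groups. The 6 alveolar epithelial genes, which mark lung, summed to 10843 to 13579 CPM (counts scaled to a common library total with composition factors) in KO lungs and to 11134 to 12780.3 CPM in WT lungs. Cd274, which encodes PD-L1, was at 198.5 ± 101.5 CPM in KO lungs and 63.5 ± 10.4 CPM in WT lungs (SD, n = 3 each), and host cells keep the gene, so its level in whole lung does not check the labels.

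In lungs with KO cells, all 10 contractile genes had lower mean levels than in lungs with WT cells, but the difference passed the test for Synpo2 alone. Synpo2, an actin-bundling protein also called myopodin, averaged 19.8 ± 1.54 CPM in KO lungs and 33.2 ± 5.63 CPM in WT lungs (SD, n = 3 each). The log2 fold changes of the 10 genes (KO minus WT) ran from -0.80 for the calponin gene Cnn1 to -0.02 for the leiomodin gene Lmod1, with a median of -0.41, against a median of 0.01 over all 15191 tested genes. Log2 differences below 0 were found for 49% of all tested genes. By the edgeR quasi-likelihood test 1 of the 10 fell and 0 rose at an adjusted p under 0.05, where 1.45% of all tested genes were called, 0.336% lower and 1.12% higher. At an unadjusted p under 0.05, 5 of the 10 were lower, against 6.33% of all tested genes. In 5 of the 10 genes (Synpo2, Mylk, Myh11, Tagln and Smtn) every KO library lay below every WT library, which holds for 9.4% of all tested genes, and in 0 of the 10 every KO library lay above every WT library, which holds for 10.3%. In RNA of a whole organ, fewer smooth muscle cells and less of these RNAs per cell cannot be told apart.

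**Figure D1:**
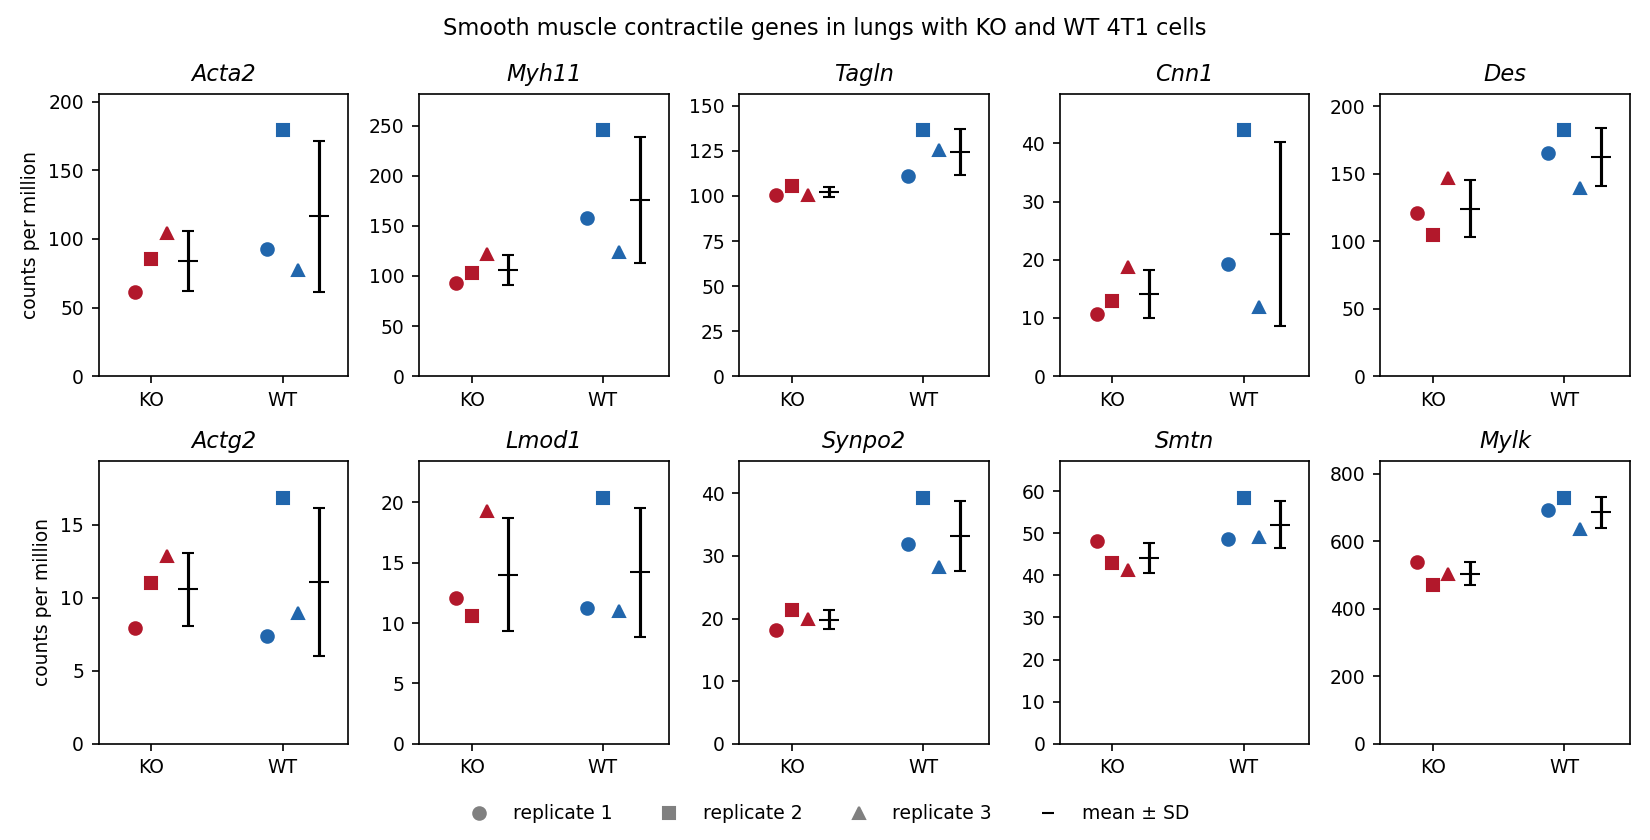
CPM of each contractile gene (vertical axes, each starting at 0) in the 3 KO and 3 WT lungs, with the replicate number given by the symbol and the mean and SD in black. WT replicate 2 is the highest library in all 10 panels, and the KO points lie below all WT points for Synpo2, Mylk, Myh11, Tagln and Smtn.

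The libraries did not contribute equally to these differences. WT replicate 2 was the highest of the 6 libraries for all 10 contractile genes, where it was the highest for 18.5% of all tested genes. The lowest library was KO replicate 1 for 5 genes, KO replicate 2 for 3, KO replicate 3 for 1 and WT replicate 1 for 1 (Actg2). Summed over the 10 genes, the level was 1010.2, 968 and 1090 CPM in KO replicates 1, 2 and 3, against 1338 CPM in WT replicate 1, 1648 CPM in WT replicate 2 and 1212 CPM in WT replicate 3. The summed levels of the groups did not overlap, and the lowest WT library lay closer to the KO libraries than to WT replicate 2. Mylk weighed most in these sums, with 538, 471 and 504 CPM in the KO lungs and 693, 728 and 636 CPM in the WT lungs. When each gene's log2 CPM was centred on its own mean and averaged over the 10 genes, the groups overlapped. On that scale KO replicate 3 (0.0088) lay above WT replicate 3 (-0.098). Without WT replicate 2, the median log2 difference of the 10 genes was -0.18, and without the other libraries in turn it lay between -0.49 and -0.34.

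**Figure D2:**
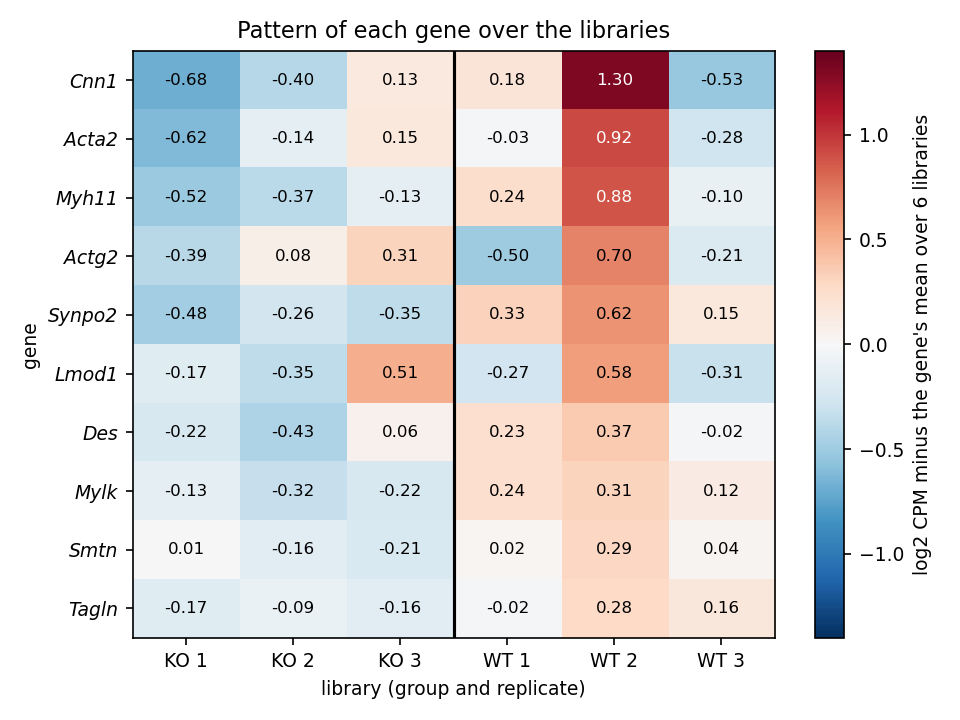
Log2 CPM of each contractile gene minus its own mean over the 6 libraries (colour and printed value), with KO libraries left of the line and WT libraries right of it. Genes are ordered by their value in WT replicate 2, which runs from 1.30 for Cnn1 to 0.28 for Tagln.

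The smooth muscle actins were examined first, since they form the thin filament itself. Acta2, the alpha-actin of vascular and airway smooth muscle (chromosome 19, 34241090 to 34255590), had 61.5, 85.7 and 105 CPM in the KO lungs, against 92.7, 179 and 77.6 CPM in the WT lungs. The groups overlapped, and WT replicate 2 stood 2.10-fold above the mean of the other WT libraries. Its log2 difference was -0.47 ± 0.36 (SE), short of the threshold (edgeR adjusted p = 0.622), and without WT replicate 2 it was -0.02. Actg2, the gamma-actin of visceral smooth muscle (chromosome 6, 83512905 to 83536265), had 7.92, 11.01 and 12.9 CPM in the KO lungs, against 7.36, 16.9 and 8.99 CPM in the WT lungs. Its log2 difference was -0.07 ± 0.31 (edgeR adjusted p = 0.951), and it turned to 0.37 without WT replicate 2 and to 0.10 without KO replicate 1. Actins are close paralogs, but 0.326% of the 50-base stretches of Acta2 transcripts and 0% of those of Actg2 recur in another muscle or cytoplasmic actin transcript. When the counts of Acta1, Acta2, Actc1 and Actg2 were added and tested as 1 gene, the log2 difference was -0.38 (edgeR adjusted p = 0.691).

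The motor and its kinase both lay lower in every KO lung. Myh11, the myosin heavy chain of differentiated smooth muscle (chromosome 16, 14194535 to 14291372), had 92.6, 103 and 122 CPM in the KO lungs, against 158, 245 and 124 CPM in the WT lungs. The highest KO library and WT replicate 3 were nearly level, and the log2 difference was -0.73 ± 0.22, short of the threshold (edgeR adjusted p = 0.151). It was -0.41 without WT replicate 2, and it passed without WT replicate 3 (-0.93, edgeR adjusted p = 0.0230). Mylk, the kinase that starts contraction by phosphorylating the myosin light chain (chromosome 16, 34745210 to 35002420), was the most abundant by read count. It had 538, 471 and 504 CPM in the KO lungs, against 693, 728 and 636 CPM in the WT lungs, so that the groups stood apart with little spread within either. The log2 difference of -0.44 ± 0.11 narrowly missed the threshold (edgeR adjusted p = 0.0550). It passed without KO replicate 1 (adjusted p = 0.0193), with limma-voom (adjusted p = 0.0432) and with DESeq2 (adjusted p = 0.000743). It missed the threshold without KO replicate 2 or 3 or WT replicate 1, 2 or 3, at edgeR adjusted p of 0.301, 0.160, 0.177, 0.203 and 0.0624. DESeq2 called 2 of the 10 genes (Mylk and Synpo2) and 4.19% of its tested genes, 1.66% lower and 2.53% higher, and limma-voom called 1 (Mylk) and 1.37%, 0.355% lower and 1.01% higher. Over all alternatives the log2 difference of Mylk stayed within -0.50 and -0.40.

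Among the proteins that decorate actin filaments, the calponin-family genes parted in how much they varied. Tagln, encoding transgelin (chromosome 9, 45929619 to 45936058), had 100.3, 105 and 101 CPM in the KO lungs, against 111, 136 and 126 CPM in the WT lungs. The groups did not overlap, and Tagln differed by -0.28 ± 0.11 in log2, short of the threshold (edgeR adjusted p = 0.233). Cnn1, encoding calponin, which restrains the myosin ATPase (chromosome 9, 22099216 to 22109630), had 10.6, 12.9 and 18.7 CPM in the KO lungs, against 19.3, 42.2 and 11.8 CPM in the WT lungs. WT replicate 2 was 2.71-fold above the mean of the other WT libraries, the groups overlapped, and the log2 difference of -0.80 ± 0.43 (edgeR adjusted p = 0.448) shrank to -0.14 without that library. Smtn, encoding smoothelin (chromosome 11, 3517523 to 3540612), had 48.1, 42.9 and 41.3 CPM in the KO lungs, against 48.5, 58.4 and 49.2 CPM in the WT lungs. KO replicate 1 and WT replicate 1 were almost equal for Smtn, and its log2 difference was -0.24 ± 0.13 (edgeR adjusted p = 0.432).

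Synpo2 led the genes that build and anchor the filaments. Synpo2 (chromosome 3, 123076519 to 123236149) had 283, 325 and 327 counts or 18.2, 21.3 and 19.9 CPM in the KO lungs, against 465, 669 and 430 counts or 32.0, 39.3 and 28.2 CPM in the WT lungs. Every KO library lay below every WT library, with a gap between the groups wider than the whole KO range. The log2 fold change was -0.74 ± 0.17, which puts KO lungs at 59.7% of the WT level (edgeR adjusted p = 0.0458). The call was lost without KO replicate 1, 2 or 3 or WT replicate 1 or 2, at adjusted p of 0.0624, 0.164, 0.140, 0.142 and 0.212, and with limma-voom at an adjusted p of 0.0530, while the log2 fold change stayed between -0.85 and -0.60. Des, encoding the intermediate filament protein desmin of muscle cells (chromosome 1, 75360329 to 75368579), had 121, 105 and 147 CPM in the KO lungs, against 165, 182 and 139 CPM in the WT lungs. KO replicate 3 reached above WT replicate 3, and Des differed by -0.39 ± 0.14 in log2, short of the threshold (edgeR adjusted p = 0.194). Lmod1, encoding leiomodin, which nucleates actin filaments (chromosome 1, 135324807 to 135368065), had 12.1, 10.6 and 19.3 CPM in the KO lungs, against 11.3, 20.4 and 10.96 CPM in the WT lungs. In each group 1 library stood near 20 CPM and the others near 11 CPM, and the log2 difference was -0.02 ± 0.29 (edgeR adjusted p = 0.983). It turned to 0.07 without KO replicate 1, 0.14 without KO replicate 2 and 0.33 without WT replicate 2.

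**Figure D3:**
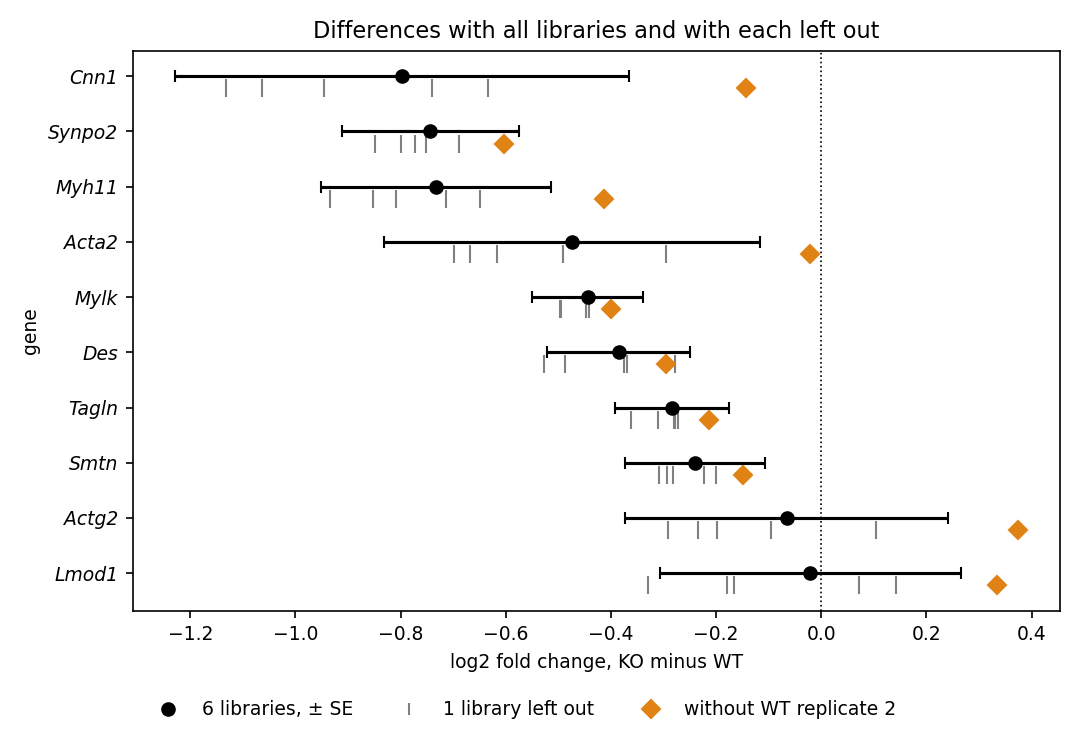
Log2 fold change (KO minus WT, horizontal axis) of each contractile gene with all 6 libraries (black, ± SE) and with each library left out (grey bars, and an orange diamond for WT replicate 2). Mylk and Synpo2 keep values of -0.50 to -0.40 and -0.85 to -0.60, while Acta2 moves to -0.02 and Actg2 and Lmod1 change sign without WT replicate 2.

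The 10 genes differed in how far WT replicate 2 stood out. Its level over the mean of the other WT libraries was 2.71-fold for Cnn1, 2.10-fold for Acta2, 2.06-fold for Actg2, 1.83-fold for Lmod1 and 1.74-fold for Myh11, and 1.10-fold to 1.31-fold for Mylk, Tagln, Smtn, Des and Synpo2, where the median over all tested genes was 0.990. Cardiac and skeletal muscle also use desmin and some of these actin-binding proteins. Of their own genes, 2 of 8 tested cardiac genes and 0 of 3 tested skeletal genes were highest in WT replicate 2. The 2 were Actc1 and Ryr2, which is named after its values were seen. In WT replicate 2 Actc1 was at 26.7 CPM and Ryr2 at 7.75 CPM, which was 1.80-fold and 2.83-fold the mean of the other WT libraries. The cardiac muscle myosin gene Myh6 was at 6.89, 10.03 and 14.0 CPM in the KO lungs. In WT replicates 1, 2 and 3 it was at 6.81, 5.23 and 10.7 CPM, so that WT replicate 2 was the lowest. Cardiac troponins were low, with Tnnt2 at 3.25 ± 2.73 CPM in KO lungs and 2.41 ± 0.280 CPM in WT lungs, and Tnni3 at 1.17 ± 0.603 CPM in KO lungs and 0.334 ± 0.309 CPM in WT lungs (SD, n = 3 each). The skeletal muscle genes Acta1 and Ckm stayed at or below 1.04 CPM in every library. The summed level of the 10 cardiac muscle genes was 33.5 to 69.0 CPM in KO lungs and 38.8 to 51.5 CPM in WT lungs.

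Per kilobase of exon, which allows levels to be compared roughly between genes, the order was nearly the same in both groups. The length is that of all annotated exons of a gene merged. Which exons the lung transcripts hold was not examined, and a gene that uses only some comes out too low. Tagln was highest with 51.4 ± 1.46 CPM per kilobase in KO lungs and 62.6 ± 6.39 in WT lungs, followed by Mylk with 44.8 ± 2.98 in KO lungs and 60.9 ± 4.11 in WT lungs. Acta2 had 38.2 ± 9.86 CPM per kilobase in KO lungs and 53.0 ± 24.95 in WT lungs, and Des had 33.1 ± 5.67 in KO lungs and 43.3 ± 5.76 in WT lungs. In KO lungs Tagln stood above all libraries of Mylk, while Mylk, Acta2 and Des overlapped, and in WT lungs these 4 genes overlapped from each to the next. Myh11 came below them with 13.9 ± 1.95 CPM per kilobase in KO lungs and 23.1 ± 8.24 in WT lungs, then Smtn with 10.1 ± 0.808 in KO lungs and 11.9 ± 1.26 in WT lungs. In WT lungs Smtn, Cnn1, Actg2, Lmod1 and Synpo2 overlapped from each to the next, in this order. Smtn stood above Actg2 in all libraries of both groups, and in KO lungs also above Cnn1. Lmod1 stood above Synpo2 in all KO libraries. Actg2, Cnn1 and Lmod1 overlapped each with the next in KO lungs too, and Cnn1 ranked above Actg2 in WT lungs and below it in KO lungs. Synpo2, the gene that passed the test, was lowest on this scale with 1.51 ± 0.118 CPM per kilobase in KO lungs and 2.53 ± 0.430 in WT lungs.

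The promoters of 7 of the 10 genes were at hand from RefSeq (GRCm38.p6, 250 bases before to 50 after the start). Those of Acta2, Synpo2 and Mylk are shown as examples of a gene that followed WT replicate 2 and of genes that separated the groups. Other genes did so too. Cnn1 stood further out in WT replicate 2 than Acta2 (2.71-fold against 2.10-fold), and its window, not shown, held none of the elements described below. Smtn also separated the groups. The RefSeq starts used for Acta2 and Mylk lie inside the GENCODE genes, downstream of their first annotated bases, and so do all marked elements of these windows. Capitals mark CArG-like elements, which have CC and GG around 6 bases of which 5 are A or T, and MCAT elements (GGAATG or CATTCC), which are bound by TEAD factors.
Acta2, chr19:34255324-34255623, minus strand: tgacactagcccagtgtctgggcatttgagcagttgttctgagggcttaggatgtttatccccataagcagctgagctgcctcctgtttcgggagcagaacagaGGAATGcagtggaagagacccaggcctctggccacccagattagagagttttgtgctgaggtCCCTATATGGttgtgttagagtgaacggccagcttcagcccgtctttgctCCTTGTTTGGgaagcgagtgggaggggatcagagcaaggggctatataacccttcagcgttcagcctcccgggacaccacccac
Synpo2, chr3:123236100-123236399, minus strand: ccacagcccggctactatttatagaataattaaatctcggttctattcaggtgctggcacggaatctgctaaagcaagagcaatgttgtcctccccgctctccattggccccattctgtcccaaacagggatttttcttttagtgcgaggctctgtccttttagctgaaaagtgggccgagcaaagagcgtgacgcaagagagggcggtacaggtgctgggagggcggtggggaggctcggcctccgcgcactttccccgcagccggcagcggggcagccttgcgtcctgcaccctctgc
Mylk, chr16:34784700-34784999, plus strand: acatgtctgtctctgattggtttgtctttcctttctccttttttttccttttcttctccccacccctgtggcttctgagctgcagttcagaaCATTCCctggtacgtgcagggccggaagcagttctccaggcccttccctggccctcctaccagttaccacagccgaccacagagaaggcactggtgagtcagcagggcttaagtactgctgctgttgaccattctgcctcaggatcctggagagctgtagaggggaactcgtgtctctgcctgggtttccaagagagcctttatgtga
The Acta2 window held CCCTATATGG and CCTTGTTTGG, starting 84 and 34 bases before the transcription start, and an MCAT element 146 bases before it. CArG-like elements were found in 1 of the 7 genes, against 9.69% of all genes with a promoter in the table, and the exact CArG box, with 6 A or T bases, in 0 of 7, against 1.81% of all genes. The promoters of Myh11, Tagln and Actg2 were not at hand, so these counts say nothing about those genes. MCAT elements were found in 4 of 7 (Acta2, Mylk, Lmod1 and Smtn), against 16.6% of all genes, with both strands searched and no overlap between the marked elements. The RefSeq start used for Smtn, whose window is not shown, and its MCAT element also lie inside the GENCODE gene. The Synpo2 window held neither motif, which says only that these letters are not in this window, and a match is no proof of a bound site.

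The other genes of contraction were taken from 8 lists of the pathway, which hold 86 distinct tested genes. Of these, 4 fell and 0 rose by the edgeR test, 64 had log2 differences below 0, and the median was -0.16. Of all tested genes 0.336% fell, 1.12% rose and 49% had log2 differences below 0. The 4 that fell were Myh10, Itga8, Pgm5 and Notch3. Myh10, the nonmuscle myosin IIB heavy chain, averaged 434 ± 10.3 CPM in KO lungs and 623 ± 31.0 CPM in WT lungs, or -0.52 ± 0.10 on the log2 scale (edgeR adjusted p = 0.0224). Itga8, an integrin chain of smooth muscle and myofibroblasts, averaged 451 ± 13.4 CPM in KO lungs and 647 ± 83.1 CPM in WT lungs (edgeR adjusted p = 0.0402). Pgm5, a structural protein of adherens-type junctions in muscle, averaged 84.5 ± 6.78 CPM in KO lungs and 125 ± 2.88 CPM in WT lungs (edgeR adjusted p = 0.0212). Notch3, a receptor that maintains mural cells, averaged 201 ± 19.7 CPM in KO lungs and 304 ± 12.4 CPM in WT lungs (edgeR adjusted p = 0.0161; SD, n = 3 each throughout). All 4 had every KO library below every WT library, which is likely for genes picked because they passed this test. Without KO replicate 2 or 3 or WT replicate 1 or 2 each of the 4 missed the threshold, at adjusted p between 0.0658 and 0.208.

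By role, the lists were not alike in their medians. None of 8 thin filament genes passed by the edgeR test, with a median of -0.03, among them Cald1 (caldesmon, 234 ± 8.45 CPM in KO lungs and 293 ± 20.8 CPM in WT lungs, edgeR adjusted p = 0.139). The tropomyosin genes had log2 differences of -0.05 ± 0.11 for Tpm1 and -0.13 ± 0.20 for Tpm2. Of 6 myosin chain genes Myh10 fell, the median was -0.04, and the smooth muscle light chain gene Myl9 was at 50.9 ± 2.33 CPM in KO lungs and 60.4 ± 11.7 CPM in WT lungs. The light chain genes Myl6 and Myl12a, named after their values were seen, had log2 differences of 0.35 ± 0.12 (edgeR adjusted p = 0.166) and 0.27 ± 0.12 (edgeR adjusted p = 0.305), and every KO library lay above every WT library for Myl6. None of 12 genes that regulate the light chain passed (median -0.09), where Prkg1, the kinase that relaxes smooth muscle downstream of nitric oxide, had a log2 difference of -0.57 ± 0.20 (edgeR adjusted p = 0.206). None of 7 tested calcium handling genes passed (median -0.21), where the calcium release channel gene Itpr1 was at 168 ± 3.49 CPM in KO lungs and 212 ± 17.0 CPM in WT lungs (edgeR adjusted p = 0.126). None of 14 tested genes for receptors of contracting and relaxing signals passed, and their median of -0.41 equalled that of the 10 contractile genes. The smallest p among them was that of Gucy1a1, a subunit of the nitric oxide receptor, at 291 ± 60.8 CPM in KO lungs and 430 ± 30.8 CPM in WT lungs (log2 difference -0.56 ± 0.14, edgeR adjusted p = 0.0571). In the list of dense plaques and filaments 2 of 19 fell (Itga8 and Pgm5, median -0.17), and in that of transcription 1 of 12 (Notch3, median -0.24). Serum response factor gene Srf was at 150.4 ± 11.5 CPM in KO lungs and 143 ± 18.2 CPM in WT lungs, and the myocardin gene Myocd at 1.77 ± 0.481 CPM in KO lungs and 2.07 ± 1.23 CPM in WT lungs. Of the 13 relatives of the contractile genes 8 were tested and none passed (median -0.14), including Synpo, the paralog of Synpo2, at 48.4 ± 4.10 CPM in KO lungs and 54.0 ± 9.59 CPM in WT lungs, and Smtnl2 (log2 difference -0.51 ± 0.27, edgeR adjusted p = 0.415). Of the lists in which the edgeR test called none, the thin filament list had 1 gene lower at an unadjusted p under 0.05, light chain regulation 1, calcium handling 3 (and 1 higher), the receptors 5 and the relatives 0. Of all tested genes 6.33% were lower and 8.29% higher at that threshold. In these lists DESeq2 called Cald1, Itpr1, Gucy1a1 and Adra1a, an adrenergic receptor gene, and limma-voom called 1 receptor gene. Single libraries moved several of these medians by over 1.5 times. Without WT replicate 2 the median was 0.04 for thin filament genes, -0.0079 for light chain regulation, -0.13 for transcription and -0.09 for the relatives. The thin filament median lay between -0.06 and 0.04 with any library left out, and the light chain median was -0.05 without KO replicate 1. The calcium handling median was -0.33 without KO replicate 1, -0.32 without WT replicate 1 and -0.36 without WT replicate 3. Smtnl1 had 0 counts in all libraries, where 3 counts would be 0.177 to 0.204 CPM.

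**Figure D4:**
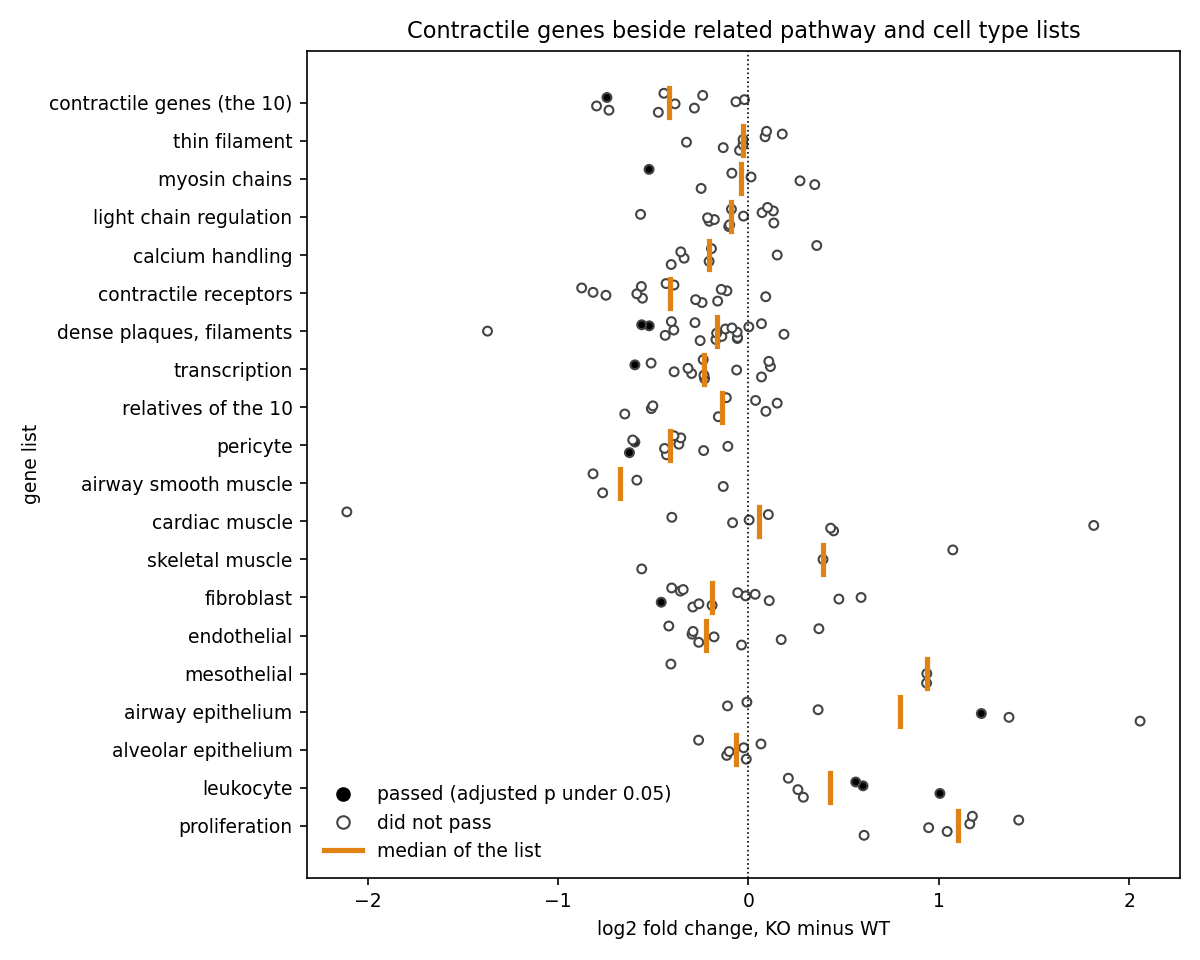
Log2 fold change (KO minus WT) of every tested gene of the contractile set, the pathway lists and the cell type lists, filled where the edgeR test passed, with the median of each list in orange. The contractile set, the receptor list and the pericyte list have medians of -0.41, and the leukocyte list of 0.43.

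Markers of neighbouring cells are given beside these genes. Pericytes, the mural cells of capillaries, share part of the contractile program. All 10 pericyte genes had log2 differences below 0, with a median of -0.41, and 2 fell (Notch3 and Pdgfrb). Of all tested genes 49% had log2 differences below 0 and 0.336% fell. The lists are not separate: Notch3, Trpc6 and Gucy1b1 of the pericyte list are also in the pathway lists above. So are Chrm2 and Chrm3 of the airway smooth muscle list. Pdgfrb, the platelet-derived growth factor receptor of mural cells, averaged 221 ± 43.2 CPM in KO lungs and 340 ± 23.1 CPM in WT lungs (log2 fold change -0.63 ± 0.13, edgeR adjusted p = 0.0347). Cspg4 had a log2 difference of -0.43 ± 0.12 (edgeR adjusted p = 0.109) and Rgs5 of -0.61 ± 0.26 (edgeR adjusted p = 0.284). The summed level of the pericyte list was 775 to 997 CPM in KO lungs and 1180.4 to 1277 CPM in WT lungs. All 4 airway smooth muscle markers had log2 differences below 0 and none passed (median -0.68, and -0.31 without WT replicate 2), where the acetylcholine receptor gene Chrm3 was at 2.89 ± 0.358 CPM in KO lungs and 5.08 ± 1.34 CPM in WT lungs (edgeR adjusted p = 0.322), and their sum was 40.8 to 49.995 CPM in KO lungs and 56.1 to 57.3 CPM in WT lungs. Of 13 fibroblast genes 1 fell, Pdgfra, at 478 ± 22.4 CPM in KO lungs and 656 ± 57.5 CPM in WT lungs (edgeR adjusted p = 0.0485). The list median was -0.19, and -0.03 without KO replicate 1. The summed level of the fibroblast list was 4619 to 5302 CPM in KO lungs and 5729 to 6204 CPM in WT lungs. Of the 13 genes 4 had log2 differences above 0, among them the proteoglycan genes Lum (0.59 ± 0.48) and Dcn (0.47 ± 0.54), both with overlapping groups. The other 9 were below 0, among them Postn (-0.40 ± 0.10, edgeR adjusted p = 0.0720) and Npnt (-0.36 ± 0.12, edgeR adjusted p = 0.158). For Postn and Npnt every KO library lay below every WT library. These 4 genes are named after their values were seen. DESeq2 called 3 of the list (Npnt, Pdgfra and Postn) and limma-voom called 1. Col1a1 was at 439 ± 67.5 CPM in KO lungs and 538 ± 50.4 CPM in WT lungs. Pdgfrb lost its call without KO replicate 2 or 3 or WT replicate 1 or 2 (adjusted p of 0.124 to 0.195), and Pdgfra without these or WT replicate 3 (adjusted p of 0.0674 to 0.242) and with library totals alone as scaling (adjusted p = 0.0557). The part of these cells in the lower contractile genes was not tested.

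Of 6 leukocyte genes 3 rose (Cd52, Coro1a and Cd53), against 1.12% of all tested genes, and the list median was 0.43. The summed leukocyte level was 1557 to 2054 CPM in KO lungs and 1199 to 1579 CPM in WT lungs. Cd52, a surface glycoprotein of lymphocytes and macrophages, averaged 92.3 ± 26.9 CPM in KO lungs and 46.0 ± 2.65 CPM in WT lungs (edgeR adjusted p = 0.0144), and Ptprc had a log2 difference of 0.29 ± 0.15. Of 6 airway epithelium genes the club cell gene Cyp2f2 rose, at 199 ± 63.9 CPM in KO lungs and 85.3 ± 21.9 CPM in WT lungs (edgeR adjusted p = 0.0440), and the club cell secretory gene Scgb1a1 was at 2090 ± 925 CPM in KO lungs and 502 ± 260.5 CPM in WT lungs (edgeR adjusted p = 0.158). DESeq2 and limma-voom each called 3 of these 6 genes, the club cell genes Scgb1a1, Cyp2f2 and Scgb3a2. The ciliated cell genes of the list had log2 differences of 0.37 ± 0.34 for Foxj1, -0.11 ± 0.11 for Tppp3 and -0.0084 ± 0.71 for Ccdc113, each with overlapping groups. Scgb3a2 and these 3 genes are named after their values were seen. The summed airway epithelium level was 1840.3 to 3758 CPM in KO lungs and 696 to 1233 CPM in WT lungs, most of it from Scgb1a1 in every KO lung (1844, 3113 and 1313 CPM). All 4 calls were lost without KO replicate 2, WT replicate 1 or WT replicate 2, those of Coro1a, Cd53 and Cyp2f2 also without KO replicate 3 and that of Coro1a without WT replicate 3, at adjusted p from 0.0526 to 0.224. With all 6 libraries Cd53 also missed the threshold with DESeq2 size factors, upper-quartile factors, limma-voom and robust=FALSE (adjusted p up to 0.0548), and Cyp2f2 with a filter at a mean log2 CPM of 1 (adjusted p = 0.0575). None of 8 endothelial genes (median -0.22), 6 alveolar epithelial genes (median -0.06), 3 tested mesothelial genes, 6 proliferation genes (median 1.10), 8 tested cardiac or 3 tested skeletal muscle genes passed by the edgeR test. At an unadjusted p under 0.05, 3 endothelial genes were lower and 1 higher, and 1 cardiac and 1 airway smooth muscle gene were lower. At that threshold 6 of 6 proliferation genes were higher, and the alveolar, mesothelial and skeletal lists had 0. Of all tested genes 6.33% were lower and 8.29% higher. DESeq2 called 2 proliferation genes (Cdk1 and Top2a) and 0 in the others of these lists, and limma-voom called 0 in all of them. In these lists Pecam1 had a log2 difference of -0.04 ± 0.12, Cdh5 of -0.26 ± 0.13, Emcn of -0.42 ± 0.13, Rtkn2 of -0.26 ± 0.12, Gpm6a of -0.41 ± 0.22, Msln of 0.94 ± 0.85 and Top2a of 1.04 ± 0.26. Msln was at 0.11 without KO replicate 3, 1.48 without KO replicate 1, 0.05 with limma-voom and 0.37 with the replicate block. The endothelial median was -0.33 without KO replicate 1 and -0.11 without WT replicate 1, and the alveolar median lay between -0.14 and 0.0090 with any library left out. The cardiac list had a median of 0.05, which was -0.39 without KO replicate 3 and between 0.01 and 0.26 without any of the others, with Ttn at 0.498 ± 0.432 CPM in KO lungs and 2.16 ± 0.488 CPM in WT lungs and Actc1 at 17.8 ± 5.67 CPM in KO lungs and 18.8 ± 6.94 CPM in WT lungs, and the skeletal muscle gene Tnni2 was at 1.997 ± 2.003 CPM in KO lungs and 0.944 ± 0.291 CPM in WT lungs. The part of leukocyte, epithelial or other cells in the contractile differences was not tested.

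Genes outside the set that followed its mean pattern over the 6 libraries most closely were Ptpn9, Itgb6, Cdh13, Vgll3 and Inpp4b. Likeness was the root mean square, over the libraries, of the difference between a gene's centred log2 CPM and the mean of the 10 contractile genes. It was 0.11 to 0.12 for these 5 of 10497 genes with a mean log2 CPM of at least 3, against 0.16 (Des) to 0.37 (Cnn1) for the contractile genes themselves. These 5 were picked as the nearest of many, so their smaller distances follow from that choice. The mean pattern peaked in WT replicate 2, so a peak there largely follows from it too. All 5 were highest in WT replicate 2, and none passed the edgeR test (2 were lower at an unadjusted p under 0.05, and DESeq2 and limma-voom called 0), with log2 differences from -0.58 ± 0.19 for the cadherin gene Cdh13 (edgeR adjusted p = 0.157) to -0.25 ± 0.15 for the phosphatase gene Ptpn9 (edgeR adjusted p = 0.483). Without WT replicate 2 their log2 differences lay between -0.36 (Cdh13) and -0.03 (Itgb6).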

How the data were processed

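The authors deposited raw counts, whole numbers for each Ensembl gene identifier. Per the labels and the processing notes, STAR 2.5 placed the paired reads on mm10 and HTSeq 0.6.1 counted them. Not given in the sources used here: the annotation release, the strandedness and how reads matching several genes were handled. Of 35275 rows a table, 0 lacked a gene identifier. Symbols, coordinates (GRCm38, counted from 1) and exonic lengths came from GENCODE M21. The listed Gucy1a3, Gucy1b3, Mkl1 and Mkl2 were matched through RefSeq synonyms. Exons of another gene overlapped those of Tagln (Pcsk7 over 5.43% and the antisense gene Gm48529, not analysed here, over 62.4% of its exonic length), Smtn (Gm11946, 16.3%), Des (Gm15179, 5.86%) and Mylk (4.87% and 1.99%), so without known strandedness reads of these partners cannot be told apart.

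Differential expression, KO minus WT, was tested two-sided over 15191 genes with edgeR 4.0.16 in R 4.3.3 (TMM, filterByExpr with a minimum count of 10, quasi-likelihood F-test with robust=TRUE, group alone, Benjamini-Hochberg, threshold 0.05). SE was obtained as log2 fold change over root F. No set test was run. The procedure was tested on simulated counts. No libraries were identical (chi-square per gene of 15.3 to 56.2 between pairs), and floors at 3 counts cover counting error only. Named genes were the 10 members, up to 3 that passed in each list or else the smallest p, 24 genes fixed by name and the 5 nearest genes. The members and lists were chosen with earlier results of these data known. The CArG-like form was added after the promoters had been searched. Alternatives were 3 other scalings, 2 other filters, DESeq2 1.42.0, limma-voom (limma 3.58.1), robust=FALSE, a threshold of 0.1, each replicate left out, the replicate number as a block, and summed muscle actins.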

Additional observations from a re-analysis of the deposited data

How the results depend on the processing

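With 1 library left out, 24 to 578 genes passed, where 221 passed with all, and 0 to 2 contractile genes and 0 to 24 genes of the other lists, where 1 and 10 passed with all. Over all genes 803 passed with no filter on low counts, 587 with DESeq2 and 475 at a threshold of 0.1. Of the other list genes 24, 23 and 17 passed in the same order. Of the contractile genes 6 passed with no filter (Acta2, Cnn1, Des, Myh11, Mylk and Synpo2), and 2 (Mylk and Synpo2) passed with DESeq2, with DESeq2 size factors in edgeR, with a filter at a mean log2 CPM of 1 and at a threshold of 0.1. With no filter the log2 differences were -0.80 for Cnn1 and -0.48 for Acta2, almost as with the filter. Their SEs were 0.20 and 0.13 with no filter, against 0.43 and 0.36 with it. Those of Mylk, Tagln, Smtn and Synpo2 were larger with no filter. KO and WT libraries overlapped for Acta2, Cnn1 and Des, so these calls do not mark separated groups. The cause of the differences between settings was not tested. Equal replicate numbers do not pair the lungs by the labels, and deviations of equal-numbered libraries correlated at r = 0.007, -0.04 and -0.0002 across genes. With the replicate block 405 genes and 2 contractile genes passed (Mylk and Synpo2). In the alternatives with 6 libraries no log2 difference of the contractile genes or the named list genes changed sign. With 1 library left out, those that changed sign ran from -0.29 to 0.37 for Actg2, -0.33 to 0.33 for Lmod1, -0.13 to 0.0072 for Tpm1, -0.31 to 0.10 for Tpm2, -0.59 to 0.30 for Myocd, -0.024 to 0.16 for Srf, -0.46 to 0.88 for Tnnt2, -0.38 to 0.26 for Actc1, -0.12 to 1.54 for Tnni2 and -0.14 to 0.028 for Pecam1. List medians that changed sign with 1 library left out ran from -0.06 to 0.04 for thin filament genes, -0.14 to 0.0090 for alveolar, -0.39 to 0.26 for cardiac and -0.12 to 0.65 for skeletal muscle genes. The median of the 10 contractile genes lay between -0.43 and -0.40 in the alternatives with 6 libraries. With a filter at a mean log2 CPM of 1 instead of 3, 2 of the 5 nearest genes were the same. With 3 libraries a group, a p above the threshold does not show that a gene did not differ.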
